A study of Mus musculus with 56 samples.

Results

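Livers of mice given a low dose of semaglutide were compared with livers of vehicle-dosed mice that had the same diet-induced fatty liver disease, and the comparison was read at the level of gene lists for liver functions and cell types. The samples were taken by their treatment and diet labels: semaglutide_low against NASHVehicle, both on the AMLN diet, which gave 16 of the 56 mice in the series, 8 in each group. All 16 were male C57BL/6J mice with obesity and metabolic dysfunction-associated steatohepatitis (DIO-MASH). They had eaten the AMLN diet, a high-fat feed with added fructose and cholesterol, for 36 weeks and had entered the study after a liver biopsy. The low-dose mice then received semaglutide at 3 µg/kg by subcutaneous injection once daily for 8 weeks, and the vehicle mice received the solvent alone for the same time. The series also holds mice on the higher semaglutide dose, mice on the FGF21 analog zalfermin, mice on both drugs, and vehicle-dosed mice on chow. The high-dose semaglutide and chow groups (8 mice each) are used below only to place the low-dose values, and their differences were taken against the same 8 DIO-MASH vehicle mice.

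Semaglutide is an agonist of the receptor for glucagon-like peptide 1, a gut hormone that raises insulin secretion and lowers appetite. The receptor is found mainly in the pancreas, the brain and the gut, and hepatocytes are generally held not to carry it, so effects on the liver are thought to follow mostly from lower food intake, weight and circulating lipids. In steatohepatitis, resident Kupffer cells are partly lost and replaced by macrophages that come from monocytes, stellate cells lay down collagen, and hepatocytes lose part of their metabolic gene expression.

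One low-dose mouse stood apart, and list medians against vehicle are therefore given with it (8 against 8 mice) and without it (7 against 8), as are the genes described most fully. For each of the 33 gene lists, the level in a mouse was set as the mean log2 CPM (CPM is the count scaled to a common library total) of the list members minus the mean of the 8 vehicle mice. Mouse 6 was the highest or the lowest of the 8 low-dose mice in 29 of the 33 lists, and in 23 lists it lay within the range of the 8 chow mice. In some of these lists the chow range covered every vehicle mouse as well. For acute phase genes it was -1.35 to 2.53, against -0.27 to 0.22 in vehicle mice. The count of 23 alone therefore does not set mouse 6 apart. The receptor gene itself, Glp1r (chromosome 17, bases 30901867 to 30936510 in GRCm38.p6), had 33 reads over the 56 livers, all in 10 of them. It had 0 to 1 reads in the low-dose mice and 0 to 2 in the vehicle mice, too few to be tested. Livers held between 5228187 and 20885786 reads on genes. Hepatocyte markers made up a summed 59843 to 82264 CPM in vehicle mice (median 70945). In low-dose mice they made up 69609 to 109965 CPM (median 81885), and the highest value was that of mouse 6. None of the 4 skeletal muscle markers had enough reads to be tested.

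No gene differed between low-dose semaglutide and vehicle at an adjusted p under 0.05 by edgeR's quasi-likelihood test (0% of 14105 genes tested), with or without mouse 6. The smallest adjusted p was 0.126 over all 8 mice and 0.663 without mouse 6. At an unadjusted p under 0.05 there were 1222 genes (8.66%), with 647 higher (4.59%) and 575 lower (4.08%) in low-dose livers. Without mouse 6 there were 692 such genes (4.91%), 343 higher (2.43%) and 349 lower (2.47%), where an even spread of p-values would put 705 genes. These percentages are the background for the counts of list members given below, and "at p under 0.05" there means the unadjusted p of this test. The median log2 fold change over all genes was -0.00, with the middle 50% of genes between -0.16 and 0.11.

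**Figure D1:**
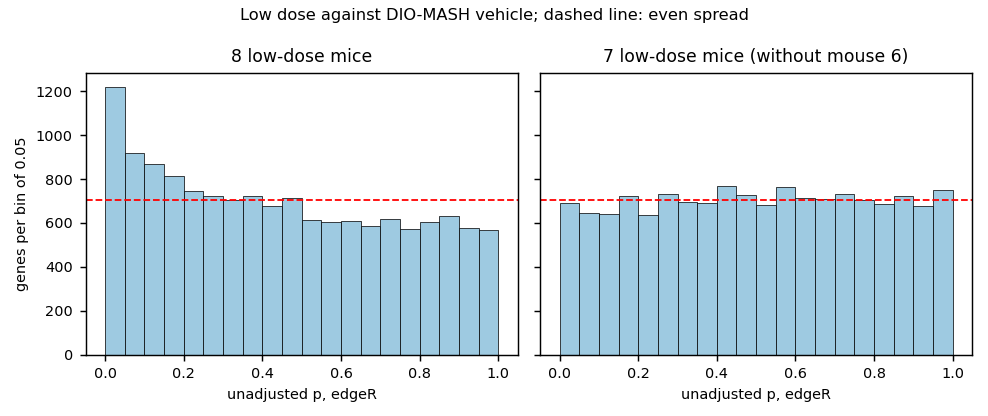
Histogram of the unadjusted edgeR p-values of 14105 genes for low-dose semaglutide against DIO-MASH vehicle, in bins of 0.05 (x axis) with the number of genes per bin (y axis); the dashed line marks an even spread. With all 8 low-dose mice the first bin holds 1222 genes, and without mouse 6 it holds 692, against 705 for an even spread.

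DESeq2's Wald test gave 31 genes at an adjusted p under 0.05 with all 8 mice (0.220%), every one of them higher in the low-dose group, and 0 without mouse 6. At an unadjusted p under 0.05 DESeq2 gave 1256 genes (8.90%), and 726 without mouse 6 (5.15%). Of the 31 genes, 28 had their highest low-dose value in mouse 6. Of the 31, 14 belonged to a gene list or marker list used here. Among the 31 genes were the carboxylesterase Ces1c (0.52 on the log2 scale, DESeq2 adjusted p = 0.00112), the drug-metabolizing P450 Cyp2c29 (1.21, adjusted p = 0.00334), Serpina6, which encodes the corticosteroid carrier of plasma (0.65, adjusted p = 0.00525), the bile acid importer Slc10a1 (0.54, adjusted p = 0.0133) and the urea cycle enzyme Cps1 (0.64, adjusted p = 0.0349).

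Of the 33 lists, 20 had a median log2 fold change above 0 and 13 below 0. Without mouse 6 the sign of the median was kept in all 33 lists, and its size was smaller in 28. Over the 515 list genes tested, 63 were higher and 48 lower at p under 0.05, as against 42 and 27 without mouse 6. Resident Kupffer cell genes had the highest median, followed by cytochrome P450 and amino acid catabolism genes, and the lowest medians belonged to MHC class II, cell cycle, collagen and lipid-associated macrophage genes.

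**Figure D2:**
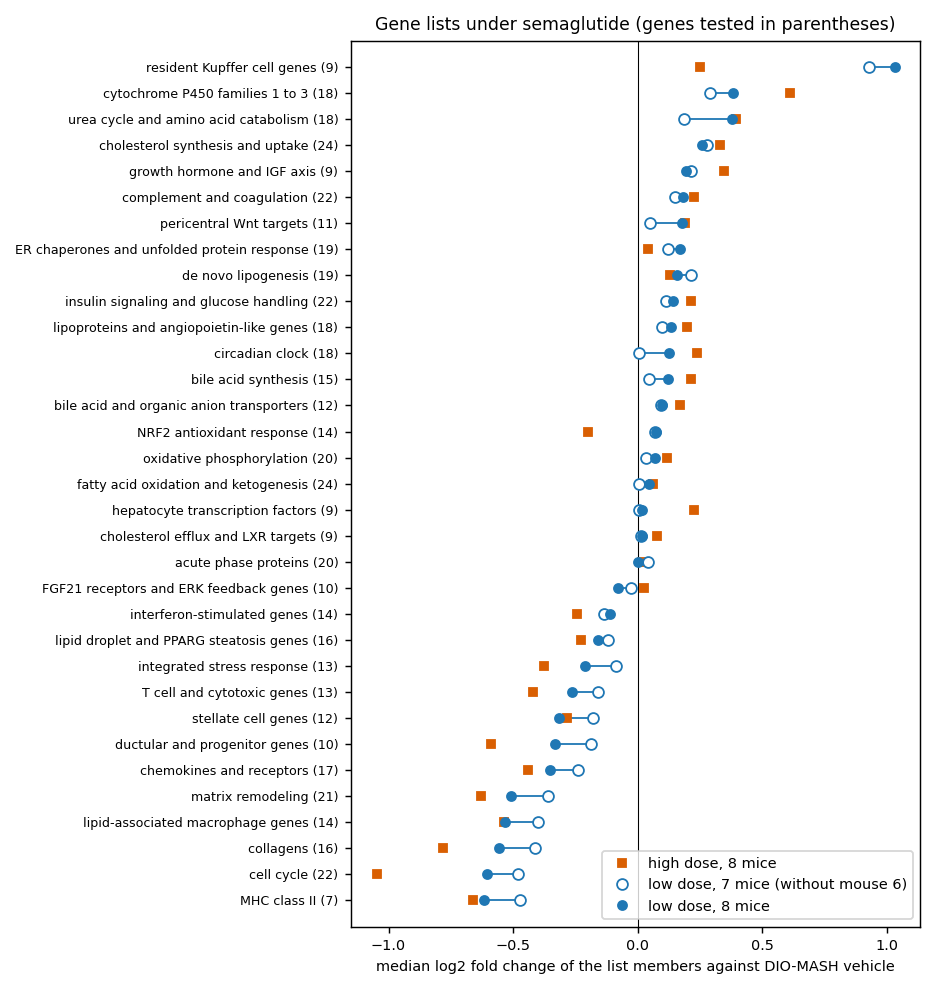
Median log2 fold change against DIO-MASH vehicle (x axis) for the tested members of 33 gene lists (y axis, number of genes in parentheses); filled circles are all 8 low-dose mice, open circles the 7 low-dose mice without mouse 6, and squares the 8 high-dose mice. Lists run from MHC class II (-0.62) to resident Kupffer cell genes (1.03), and the open circles mostly lie nearer to 0 than the filled ones.

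Kupffer cells are the macrophages that live in the liver sinusoids and clear particles, dying cells and bacteria from portal blood. All 9 resident Kupffer cell genes had a positive fold change in low-dose livers, with a median of 1.03 on the log2 scale, and 6 of the 9 were at p under 0.05. Without mouse 6 the median was 0.93, again with 9 of 9 positive and 6 at p under 0.05. Mouse 6 had a list level of 1.02, close to the group median of 0.98.

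The scavenger receptor gene Marco (chromosome 1, bases 120474538 to 120505024) had a lowest value of 0.00, a median of 0.36 and a highest value of 3.54 CPM in vehicle mice. In low-dose mice its lowest value was 0.24, its median 2.52 and its highest 35.01 CPM. The fitted difference was 3.35 ± 0.98 (SE) on the log2 scale, or 3.49 without mouse 6, with 3 of 8 low-dose mice above every vehicle mouse (edgeR unadjusted p = 0.00120, adjusted p = 0.272). Over omission of single mice the Marco difference ran from 2.44 (without low-dose mouse 4) to 4.62 (without vehicle mouse 1). Timd4, a receptor for phosphatidylserine on dying cells, ranged from 0.173 to 3.54 CPM in vehicle mice (median 0.802) and from 0.959 to 12.9 CPM in low-dose mice (median 2.97). All 8 low-dose mice lay above the vehicle median of Timd4, and the difference was 2.005 ± 0.53, or 2.07 without mouse 6. The groups overlapped for both genes, and the spread within the low-dose group was wide.

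Clec4f, a lectin made by Kupffer cells, had a vehicle median of 42.4 CPM (17.9 to 90.3) and a low-dose median of 84.3 CPM (30.9 to 192). The complement receptor gene Vsig4 had medians of 12.3 and 32.1 CPM, and all 8 low-dose mice lay above the vehicle median. Folr2 and Fcna were higher by 0.87 and 0.67 on the log2 scale. Cd5l, a secreted macrophage protein, was higher by 0.34 with an unadjusted p of 0.260 by edgeR and had a lower median in the low-dose group (188 CPM) than in the vehicle group (202 CPM). In bulk liver, more cells of a type and more RNA per cell cannot be told apart.

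At the high dose the median of the Kupffer list was 0.25 and in chow mice 0.75, against the same vehicle mice. Compared directly, low-dose livers had more Marco and Timd4 RNA than high-dose livers at an unadjusted p by edgeR of 0.00324 and 0.00154, neither of which passed adjustment (adjusted p = 0.999 by edgeR for both). The sample numbers in the labels were split into number series wherever neighboring numbers differed by more than 100. Vehicle mouse 8 lay in series D, which holds no low-dose mouse, so values by series leave it out. The list level differed by number series. Low-dose minus vehicle was 0.30 in series A (4 against 2 mice), 0.84 in series B (2 against 3, or 0.79 without mouse 6) and 2.20 in series C (2 against 2). In vehicle mice the level ran from -0.79 to 1.49, with 1 vehicle mouse above the low-dose median. The part of the number series in this result was not tested.

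**Figure D3:**
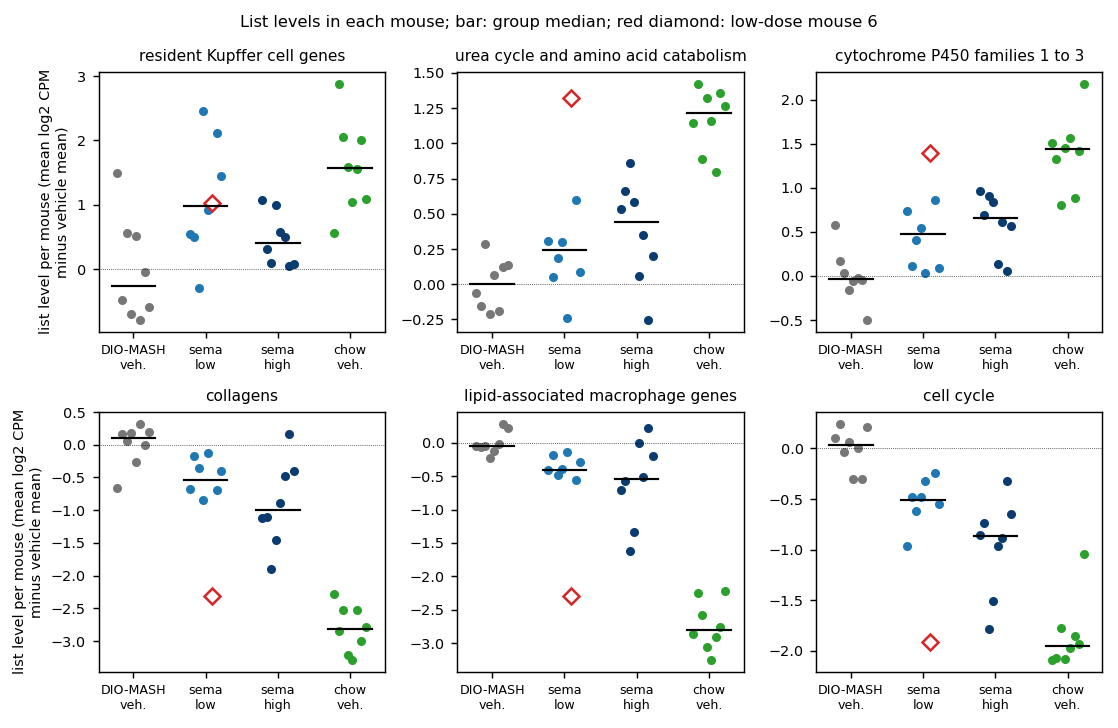
List level per mouse (y axis, mean log2 CPM of the list members minus the mean of the 8 DIO-MASH vehicle mice) for 6 gene lists in DIO-MASH vehicle, low-dose semaglutide, high-dose semaglutide and chow vehicle mice (x axis, 8 points each); bars are group medians and the red diamond is low-dose mouse 6. Mouse 6 sits among the other low-dose mice for Kupffer cell genes (1.02) and near the chow mice for collagens (-2.31) and cell cycle genes (-1.91).

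Lipid-associated macrophages gather around fat-laden hepatocytes and in scars, and carry Trem2, Gpnmb and Spp1. Of the 14 genes of this list, 13 had a negative fold change (median -0.53) and 4 were at p under 0.05. All 8 low-dose mice lay below the vehicle median of the list level and 6 lay below every vehicle mouse. Without mouse 6 the median was -0.40 and no member was at p under 0.05. The lipid-sensing receptor gene Trem2 ranged from 10.2 to 24.6 CPM in vehicle mice (median 12.6) and from 3.28 to 11.7 CPM in low-dose mice (median 8.92), with 6 low-dose mice below every vehicle mouse. Its difference was -0.70 ± 0.31 (edgeR unadjusted p = 0.0305, adjusted p = 0.530), or -0.59 without mouse 6. Spp1, which encodes osteopontin, had a difference of -0.85 ± 0.38 (-0.69 without mouse 6), and the lysosomal protease gene Ctss one of -0.53 ± 0.25 (-0.41 without mouse 6). Mouse 6 had the lowest value of both, 31.2 and 50.6 CPM. Low-dose minus vehicle list levels were -0.31 in number series A, -1.08 in B (-0.00 without mouse 6) and -0.55 in C. The markers used for monocyte-derived macrophages were Ccr2, Itgax, Lyz2, Adgre1 and Cd68, not all of them particular to these cells. They summed to 280 to 467 CPM in vehicle mice (median 304). In low-dose mice they summed to 81.8 to 360 CPM (median 287), and the lowest value was that of mouse 6. Spp1 is also 1 of the 4 markers of cholangiocytes (bile duct cells) used here, and all 4 had a negative fold change (median -0.42, or -0.27 without mouse 6). The part of either cell type in these values was not tested.

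Genes of antigen presentation, chemokine signaling and T cells had negative medians as well. All 7 MHC class II genes were lower (median -0.62, or -0.47 without mouse 6), 3 of them at p under 0.05 with mouse 6 and 1 without. H2-Ab1, a chain of the molecule that presents peptides to helper T cells, had medians of 226 CPM in vehicle and 130 CPM in low-dose mice. Members of this family are close in sequence, so reads may be split between them. Of 17 chemokine and receptor genes, 15 were lower (median -0.35, or -0.24 without mouse 6). Of these, 5 were at p under 0.05, or 4 without mouse 6. The receptors of monocytes Ccr2 (-0.74 ± 0.28, or -0.58 without mouse 6) and Cx3cr1 (-0.87 ± 0.30, or -0.72) were below the vehicle median in all 8 mice, as was the chemokine Cxcl14 (-0.82 ± 0.27). T cell and cytotoxic genes (median -0.26, or -0.16 without mouse 6) and interferon-stimulated genes (median -0.11, or -0.14) had no member at p under 0.05 in either case. The T cell list level of low-dose minus vehicle mice was -1.02 in number series A, -0.05 in B (0.26 without mouse 6) and 0.05 in C. For MHC class II it was -0.63, -0.96 (0.03 without mouse 6) and -0.78. For chemokines it was -0.38, -0.64 (-0.08 without mouse 6) and -0.50, and for interferon-stimulated genes -0.20, 0.01 (0.23 without mouse 6) and -0.47.

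Collagen chains form the scar matrix of a fibrotic liver. All 16 collagen chain genes had a negative fold change, with a median of -0.56, and 9 were at p under 0.05. Without mouse 6 all 16 were still negative, the median was -0.41 and 5 were at p under 0.05. All 8 low-dose mice lay below the vehicle median of the collagen level and 4 lay below every vehicle mouse. The medians at the high dose and in chow mice were -0.78 and -2.88.

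Col3a1 (chromosome 1, bases 45311538 to 45349706), a fibrillar collagen of scars, ranged from 256 to 507 CPM in vehicle mice with a median of 417 CPM. In low-dose mice it ranged from 34.4 to 279 CPM with a median of 190 CPM, and 7 of the 8 lay below every vehicle mouse. The difference was -1.04 ± 0.31 (edgeR unadjusted p = 0.00133, adjusted p = 0.272), and without mouse 6 it was -0.88. Col1a1, the main chain of type I collagen, had medians of 284 and 134 CPM (-1.01 ± 0.37, or -0.84 without mouse 6), and mouse 6 had 19.2 CPM against 109 to 205 CPM in the other 7. Col5a2, which helps to set fibril width, was lower by 0.89 ± 0.25.

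Of 21 matrix remodeling genes, 20 were lower (median -0.51) and 10 were at p under 0.05. Without mouse 6 these were 17 lower (median -0.36) and 7 at p under 0.05. The collagenase gene Mmp13 had a vehicle median of 3.59 CPM (1.18 to 8.53) and a low-dose median of 1.17 CPM (0.00 to 3.29), where mouse 6 had no read. Its difference was -1.66 ± 0.43 (edgeR adjusted p = 0.270), or -1.497 without mouse 6. The matricellular genes Postn (-0.90 ± 0.24) and Sparc (-0.74 ± 0.20) were below the vehicle median in all 8 mice. Timp1, an inhibitor of matrix proteases, had medians of 5.90 and 3.42 CPM (-0.86 ± 0.33). Fn1, which encodes fibronectin and is also made by hepatocytes, was the single member with a positive fold change (0.24).

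Within the number series the low-dose minus vehicle collagen level was -0.26 in series A, -1.21 in series B and -0.71 in series C. Series B holds mouse 6, and without it the value there was -0.12, from 1 low-dose mouse. Stellate cell genes had a median of -0.31 (-0.18 without mouse 6), and 1 of the 12 was at p under 0.05, namely Rgs5 (-0.52 ± 0.22). Acta2, the smooth muscle actin of activated stellate cells, had medians of 6.97 CPM in vehicle and 6.43 CPM in low-dose mice, and its difference was -0.09 ± 0.38, or 0.02 without mouse 6. Stellate cell markers summed to 200 to 293 CPM in vehicle mice (median 248). In low-dose mice they summed to 107 to 277 CPM (median 233), and the lowest value was that of mouse 6. The part of cell number in the collagen values was not tested.

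**Figure D4:**
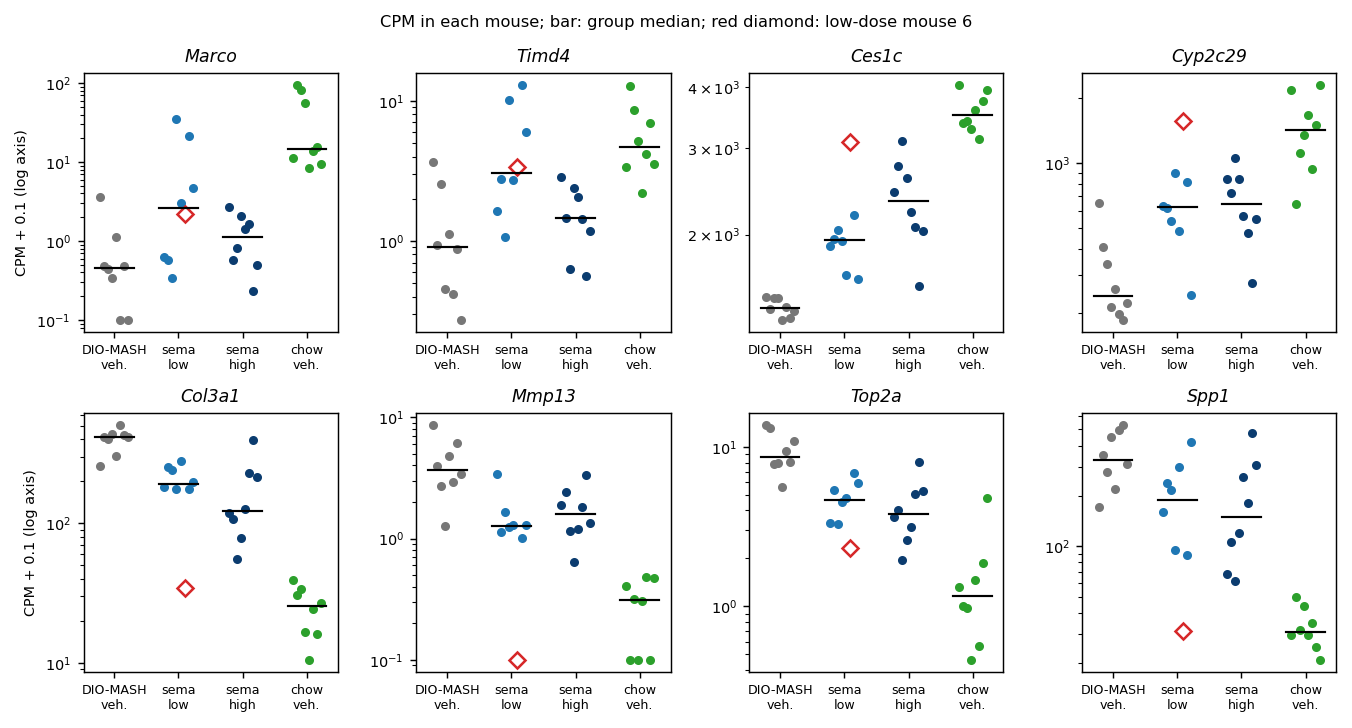
CPM plus 0.1 on a log axis (y) in each mouse of the 4 groups (x axis, 8 mice each) for Kupffer cell genes (Marco, Timd4), hepatocyte genes (Ces1c, Cyp2c29), matrix genes (Col3a1, Mmp13), a cell cycle gene (Top2a) and Spp1; bars are group medians and the red diamond is low-dose mouse 6. Ces1c does not overlap between vehicle (up to 1493 CPM) and low-dose mice (from 1621 CPM), and for Col3a1 a single low-dose mouse (279 CPM) reaches the lowest vehicle value (256 CPM).

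Cell cycle genes encode the machinery of DNA replication and mitosis, which in a fatty liver runs in regenerating hepatocytes and in dividing leukocytes and stellate cells. All 22 genes had a negative fold change (median -0.60) and 13 were at p under 0.05. In the list level, 7 of 8 low-dose mice lay below every vehicle mouse. Vehicle mice ranged from -0.30 to 0.25 and low-dose mice from -1.91 to -0.24, or from -0.96 without mouse 6. Without mouse 6, 21 of the 22 were lower (median -0.48) and 7 were at p under 0.05. The medians at the high dose and in chow mice were -1.05 and -2.13. By number series, low-dose minus vehicle was -0.81 in A, -1.03 in B (-0.24 without mouse 6) and -0.24 in C.

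The 3 cell cycle genes with the smallest p were Top2a, which encodes the topoisomerase that untangles sister chromosomes, the proliferation marker Mki67, and Cdc20, an activator of the complex that starts anaphase. Top2a (chromosome 11, bases 98992947 to 99024199) ranged from 5.50 to 13.7 CPM in vehicle mice (median 8.62) and from 2.23 to 6.75 CPM in low-dose mice (median 4.55). The difference was -1.10 ± 0.31 (edgeR unadjusted p = 0.000795, adjusted p = 0.270), or -1.01 without mouse 6. Mki67 had medians of 13.7 and 7.29 CPM (-1.12 ± 0.33), with 5 low-dose mice below every vehicle mouse. Cdc20 had medians of 3.03 and 1.77 CPM (-1.06 ± 0.31). Levels were a few CPM, so that single mice rest on few reads. The cyclin gene Ccnd1 (-0.05) and the replication clamp gene Pcna (-0.10) differed least.

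Genes expressed late in the cell cycle are known to share a short promoter element, the cell cycle genes homology region (CHR), often near a CCAAT box. The stretches before the RefSeq starts of these 3 genes are shown because their RNA levels were lower together. They are read 5′ to 3′ on the strand of the gene in GRCm38.p6, with the CHR letters TTTGAA in capitals at their first occurrence. The Mki67 stretch holds the same letters once more, in lower case.
Top2a, chr11:99024323-99024408, minus strand: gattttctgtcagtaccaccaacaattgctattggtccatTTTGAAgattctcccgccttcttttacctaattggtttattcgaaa
Mki67, chr7:135716450-135716535, minus strand: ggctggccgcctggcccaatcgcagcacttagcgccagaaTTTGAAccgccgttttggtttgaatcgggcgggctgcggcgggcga
Cdc20, chr4:118437344-118437401, minus strand: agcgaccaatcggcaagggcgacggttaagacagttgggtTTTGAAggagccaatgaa
The capitals began 179, 116 and 18 bases before the RefSeq promoter start of Top2a, Mki67 and Cdc20, respectively. For Top2a that start lies inside the outer gene bounds given above, and for Mki67 inside its own. In the 250 bases before the start, on either strand, TTTGAA or its complement TTCAAA was present in 6 of the 16 cell cycle genes with a RefSeq promoter (37.5%) and in 1465 of 11059 tested genes (13.2%). The letters CCAAT or ATTGG, which can share at most 1 base with the element, were present in 14 of the 16 (87.5%) and in 4440 of 11059 (40.1%). A match of letters is a description and not a measured binding site.

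Several lists of hepatocyte functions had positive medians. The hepatocyte transcription factor list lay near 0 (median 0.02, or 0.005 without mouse 6), with 5 of its 9 genes positive and 4 negative. The P450 enzymes of families 1 to 3 oxidize drugs, steroids and other foreign compounds. Their list also holds the reductase gene Por and the nuclear receptor genes Nr1i2 and Nr1i3. All 18 genes of this list had a positive fold change (median 0.38) and 7 were at p under 0.05. Without mouse 6, 17 of 18 were positive (median 0.29) and 6 were at p under 0.05. Cyp2c29 ranged from 186 to 654 CPM in vehicle mice (median 241) and from 244 to 1566 CPM in low-dose mice (median 623). All 8 low-dose mice were above the vehicle median, and the difference was 1.22 ± 0.28 (edgeR adjusted p = 0.252), or 0.96 without mouse 6. Its neighbor Cyp2c37 was higher by 1.35 ± 0.35, or 1.02 without mouse 6. The Cyp2c genes are related in sequence, some of them closely, so the split of reads between them may be uncertain. Within the number series, the list level of low-dose minus vehicle mice was 0.08 in series A, 0.78 in series B (0.10 without mouse 6) and 0.51 in series C.

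The urea cycle disposes of ammonia from amino acid breakdown. All 18 genes of the urea cycle and amino acid catabolism list were positive, with a median of 0.38 and 8 at p under 0.05. Without mouse 6 the median was 0.19, 17 of 18 were positive and 3 were at p under 0.05. Cps1, the entry enzyme of the cycle, had medians of 1724 and 2486 CPM, and mouse 6 had 6070 CPM where the next highest low-dose mouse had 3284 CPM. Its difference was 0.64 ± 0.20, or 0.39 without mouse 6. Hpd, an enzyme of tyrosine breakdown, was above the vehicle median in all 8 mice (0.59 ± 0.17, or 0.34 without mouse 6), as was Oat, which converts ornithine (0.65 ± 0.21, or 0.42 without mouse 6). By number series the list level of low-dose minus vehicle mice was 0.32 in A, 0.50 in B and 0.38 in C, and in B it was -0.28 without mouse 6, from 1 low-dose mouse.

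The gene with the smallest p in the whole table was Ces1c (chromosome 8, bases 93099015 to 93131283), which encodes a carboxylesterase secreted into rodent plasma. It ranged from 1339 to 1493 CPM in vehicle mice (median 1416) and from 1621 to 3091 CPM in low-dose mice (median 1947), with no overlap. The highest low-dose value was that of mouse 6, and the next was 2189 CPM. The difference was 0.53 ± 0.11 (edgeR unadjusted p = 8.92e-06, adjusted p = 0.126), or 0.42 without mouse 6. Ces1c is one of several close copies side by side in the genome. In the fit of all mice, Serpina6 (0.65 ± 0.15) and Plekhb1 (0.62 ± 0.15) followed Ces1c and Cyp2c29 among the higher genes. Without mouse 6 their differences were 0.51 and 0.52. All 8 low-dose mice were above the vehicle median of Serpina6 and of Plekhb1.

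Of 11875 genes with a mean of 1 CPM or more, 5 (0.0421%) had every low-dose mouse above every vehicle mouse, and 4 (0.0337%) had every low-dose mouse below. The 5 higher genes were Ces1c, Cyp27a1, Itih2, Itpr2 and Atad1. The 4 lower genes were Insyn1, Kif20a, Anxa2 and Gdf3. The 9 genes were the same without mouse 6, when Tmem29 was also lower without overlap. Kif20a, a kinesin of cell division, had medians of 3.22 CPM in vehicle and 1.95 CPM in low-dose mice. Anxa2, an annexin of membranes, had medians of 138 and 98.8 CPM. Itih2, which encodes a plasma protein that binds hyaluronan, had medians of 1010.3 and 1167 CPM. These genes apart from Ces1c, Cyp27a1 and Insyn1 were named for their lack of overlap, after their values were seen.

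Bile acid genes pointed the same way in part. Of 15 bile acid synthesis genes, 9 were positive (median 0.12, or 0.05 without mouse 6) and 5 were at p under 0.05, or 3 without mouse 6. Cyp27a1, which opens the acidic pathway, ranged from 299 to 370 CPM (369.8) in vehicle mice and from 370 (370.3) to 469 CPM in low-dose mice, a difference of 0.35 ± 0.09 that was 0.33 without mouse 6. The bile acid conjugation enzyme Slc27a5 was higher by 0.40 ± 0.11, or 0.32 without mouse 6. Cyp7a1, the rate-limiting enzyme of the classic pathway, had medians of 158 and 108 CPM and differed by -0.36 ± 0.35. Among 12 bile acid and organic anion transporters, the importer Slc10a1 was above the vehicle median in all 8 mice (0.55 ± 0.14, or 0.39 without mouse 6). The export pump Abcb11 had medians of 486 and 664 CPM (0.48 ± 0.18, or 0.38 without mouse 6).

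Complement and coagulation proteins are made in the liver and secreted into plasma. Of 22 complement and coagulation genes, 19 were positive (median 0.18, or 0.15 without mouse 6) and 8 were at p under 0.05, or 6 without mouse 6. Antithrombin (Serpinc1, 0.34 ± 0.09), plasminogen (Plg, 0.37 ± 0.11) and factor VII (F7, 0.45 ± 0.14) had the smallest p. Of 18 lipoprotein genes, 4 were higher and 1 lower at p under 0.05 (median 0.13, or 0.10 without mouse 6). The enzyme Lcat, which esterifies plasma cholesterol, was higher by 0.37 ± 0.11 and hepatic lipase (Lipc) by 0.36 ± 0.11. Without mouse 6 these were 0.29 and 0.27. The 20 acute phase genes were evenly split, 10 above and 10 below 0, with a median of 0.00, or 0.04 without mouse 6. Of 9 growth hormone and IGF axis genes, 7 were positive and 2 negative (median 0.19, or 0.22 without mouse 6). Igf1, the growth factor that the liver makes under growth hormone, was higher by 0.34 ± 0.12 and its binding protein gene Igfbp3 lower by 0.54 ± 0.19. Hepatocyte markers themselves had a median of 0.26 (0.15 without mouse 6), with all 6 positive and 3 at p under 0.05, or none without mouse 6. Their part in these hepatocyte results was not tested.

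Lipid synthesis and droplet genes had small medians. None of 19 de novo lipogenesis genes was at p under 0.05 (median 0.16, or 0.22 without mouse 6). Fasn, the fatty acid synthase, ranged from 787 to 4477 CPM in vehicle mice and from 1157 to 5781 CPM in low-dose mice, a spread far larger than the difference of 0.28 ± 0.35. Of 16 lipid droplet and PPARG steatosis genes, 15 were negative (median -0.16, or -0.12 without mouse 6) and 1 was at p under 0.05, the fatty acid carrier Fabp4 (-0.81 ± 0.23). The lipid uptake receptor Cd36 differed by -0.15 ± 0.14 and the droplet protein gene Cidea by -0.42 ± 0.36. The regulator Pparg differed by -0.04 ± 0.16 with mouse 6 and by 0.06 without it. Mouse 6 had the lowest low-dose value of these 3 genes, 187, 7.62 and 12.7 CPM.

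Of 24 cholesterol synthesis and uptake genes, 23 were positive (median 0.26, or 0.28 without mouse 6) and 6 were at p under 0.05, or 4 without mouse 6. The carrier Stard4 was higher by 0.51 ± 0.16, with 6 low-dose mice above every vehicle mouse. The median of the list level ran the other way, at 0.18 in vehicle and 0.08 in low-dose mice, since vehicle mice reached down to -0.59 and low-dose mice up to 0.75. Fatty acid oxidation genes had a median of 0.05 (0.0074 without mouse 6) and 2 of 24 at p under 0.05. These were Cyp4a14 (1.27 ± 0.34) and Cyp4a10 (0.73 ± 0.25), close copies that act in omega-hydroxylation. Oxidative phosphorylation genes had a median of 0.07 with 17 of 20 positive, or 0.035 with 11 of 20 positive without mouse 6, and none at p under 0.05.

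Few stress and clock genes were at p under 0.05. No member was at p under 0.05 among the integrated stress response (median -0.21, or -0.09 without mouse 6), NRF2 (0.07 in both cases) and clock genes (0.13, or 0.00 without mouse 6). Of 19 endoplasmic reticulum chaperone and unfolded protein response genes, 2 were at p under 0.05 (median 0.17), or 1 without mouse 6 (median 0.12). In both cases 17 of the 19 were positive. The list level of 7 of the 8 low-dose mice lay above the vehicle median, and 5 lay above every vehicle mouse. Of 10 FGF21 receptor and feedback genes, 4 were positive and 6 negative (median -0.08, or -0.025 without mouse 6). The co-receptor gene Klb (0.42 ± 0.14, or 0.32 without mouse 6) and the receptor gene Fgfr4 (0.39 ± 0.12, or 0.29) were at p under 0.05, and Fgf21 itself had medians of 2.78 and 2.79 CPM. Of 11 pericentral Wnt target genes, 6 were positive and 5 negative (median 0.18, or 0.05 without mouse 6). Of these, 3 were at p under 0.05, or 1 without mouse 6. Their list level was above the vehicle median in 4 low-dose mice and below it in 4. The member Glul, which makes glutamine, was above the vehicle median in all 8 mice (0.29 ± 0.11, or 0.31 without mouse 6). Ductular and progenitor genes were all 10 negative (median -0.33, or -0.19 without mouse 6), with none at p under 0.05. With number series as a covariate and without mouse 6 their median was 0.013.

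Low and high dose were also compared directly. No gene differed at an adjusted p under 0.05 by edgeR (0%; smallest adjusted p = 0.999), and 549 were at an unadjusted p under 0.05 (3.89%). DESeq2 also gave 0, with 612 at an unadjusted p under 0.05 (4.34%). Without mouse 6, 2 genes were lower at the low dose (0.0142%) by edgeR and 2 by DESeq2, and the genes at an unadjusted p under 0.05 were 1052 (7.46%) and 1093 (7.75%). By edgeR the 2 genes were the nucleoside transporter gene Slc29a1 (-0.52, adjusted p = 0.00532) and Cnmd (-1.66, adjusted p = 0.0146). With mouse 6 these differences were -0.41 and -1.23, both at an edgeR adjusted p of 0.999. A p above the threshold does not show that the doses acted alike.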

How the data were processed

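Snap-frozen terminal livers were sequenced as stranded mRNA libraries by the authors, who deposited whole-number counts per gene, not normalized, for all 56 mice. The submitters' processing notes name Trim Galore 0.6.4, Salmon 1.9.0 and GRCm38, while the study's methods describe alignment to the genome; which program made the table, and whether it used strand, is not given in the sources used here, so the values may be rounded estimates. The study states that 1 low-dose semaglutide mouse was excluded as an outlier, which the table does not mark. All mice were kept here.

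Groups came from the treatment and diet labels, and each sample is 1 mouse. Genes with at least 5 reads in at least 3 mice were kept (14105 of 21935). One edgeR 4.0.16 quasi-likelihood fit of all 7 groups (TMM scaling, R 4.3.3) gave fold changes, standard errors and Benjamini-Hochberg adjusted p-values. CPM used the scaled library totals, and log2 CPM a prior count of 2. The alternatives were DESeq2 1.42.0 (default Wald test), its size factors, number series as a covariate, a looser and a stricter filter, a fit of only the groups compared, and omission of each mouse. The fit was tested on simulated data. Reads on genes ran from 7393654 to 16434379 in vehicle and from 8037163 to 20885786 in low-dose mice. No pair of libraries held identical counts.

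The gene lists, members and named genes were chosen with earlier results of these data known. Named genes were a fixed panel (1 gene of it is not reported here), the 4 genes per direction with the smallest p (mean level at least 1 CPM, with and without mouse 6), and up to 3 members with the smallest p in each described list. Fn1, Ccnd1, Pcna, Gpnmb, Cd5l, Folr2, Fcna, Vsig4, Slc29a1, Cnmd, Ngp, Camp and the genes named only for lack of overlap were chosen outside this rule, after their values were seen. Promoter sequence and gene positions came from RefSeq on GRCm38.p6.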

Additional observations from a re-analysis of the deposited data

Results flagged for a closer look

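In groups of 8 mice, a highest or lowest mouse can stand far from the other 7 by Dixon's criterion, and in independent groups chance does this in about 1 in 20. The groups examined here were lists and genes read in the same mice, and some genes were named for their small p in these mice. The counts below are therefore a description and cannot be set against that rate. Of 112 groups examined, 24 had such a mouse, and in 20 of them it was low-dose mouse 6. Its list level was the lowest for lipid droplet genes (-0.91), collagens (-2.31), matrix remodeling (-2.25), stellate cell genes (-1.33), lipid-associated macrophage genes (-2.29), chemokines and receptors (-1.48), MHC class II (-2.31) and cell cycle genes (-1.91). It was the highest for fatty acid oxidation (0.30) and bile acid synthesis (0.64).

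On the log2 CPM scale, mouse 6 was the lowest of the low-dose mice for Pparg (3.68), Cd36 (7.55), Cidea (2.96), Col1a1 (4.28), Trem2 (1.79), Fndc10 (-1.32), Insyn1 (-1.83) and Mmp13 (-2.60). It was the highest for Ces1c (11.59) and Serpina6 (9.31).

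The other 4 such mice included vehicle mouse 3, highest for insulin signaling genes (0.27). Vehicle mouse 6 was lowest for endoplasmic reticulum chaperone and unfolded protein response genes (-0.36). The others were vehicle mouse 1, lowest for Col1a1 (6.94 log2 CPM), and low-dose mouse 8, lowest for Abcb11 (8.17 log2 CPM).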

How the results depend on the processing

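The number of genes past an adjusted p of 0.05 against vehicle was 0 in most settings, 31 with DESeq2 and 2 when mouse 6 was left out and only the 2 groups were fitted (Col3a1 and Insyn1). Omission of single mice gave 0 to 2: Cyp2c37 and Cyp2c29 without vehicle mouse 1, and Cyp21a1 without low-dose mouse 4. Genes at an unadjusted p under 0.05 ranged from 692 (without low-dose mouse 6) to 1609 (without low-dose mouse 8), with 726 by DESeq2 without mouse 6 and 733 with number series as a covariate without mouse 6. Against the high dose, omission of single mice gave 0 to 2 genes, with 2 only without low-dose mouse 6. Of 875 list medians recomputed, 869 stayed within 1 SD of the list level between mice of a group, with mouse 6 included. That range was wide, so the count does not show that the medians were stable. For urea cycle genes the SD was 0.36, and a fall of the median from 0.38 to 0.19 without mouse 6 counted as staying. For ductular genes the SD was 0.77, and a change of sign from -0.33 to 0.013 counted as staying. The clock median was -0.073 with number series as a covariate without mouse 6. The neutrophil marker median was 0.90 with only the 2 groups, 0.89 with the stricter filter, 0.99 with only the 2 groups and without mouse 6, and 0.25 to 2.43 over omitted mice. Pparg ran from -0.13 to 0.059 over omitted mice and was above 0 without low-dose mouse 6 or vehicle mouse 8. Acta2 ran from -0.27 to 0.016 over omitted mice and was 0.10 with number series as a covariate. The causes of these changes were not tested. Of genes at an unadjusted p under 0.05, the share that was higher was 52.95%, and it was 47.94% with DESeq2 size factors and 57.77% with number series as a covariate. No paired analysis was run. The labels give the groups no shared replicate numbers and do not say what neighboring sample numbers stand for. The number series entered as a covariate instead. Genes of a few CPM, such as Marco and Cdc20, rest on few reads per mouse.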

Other observations

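B cell markers, which a liver sample can hold through blood or lymphoid clusters, were lower in low-dose livers. All 4 were at an unadjusted p under 0.05 by edgeR with mouse 6 and without it, with median log2 fold changes of -1.73 and -1.59, and none passed adjustment. Their summed level ran from 2.35 to 44.9 CPM in vehicle mice (median 4.99). In low-dose mice it ran from 1.17 to 9.76 CPM (median 3.45), and the lowest value was that of mouse 6. The low-dose minus vehicle level was -3.22 in number series A, -0.73 in B (-0.13 without mouse 6) and 0.16 in C.

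Neutrophil granule genes were at or near 0 in most livers. Ngp ranged from 0 to 0.240 CPM in vehicle mice and from 0 to 5.30 CPM in low-dose mice, and Camp from 0 to 0.118 CPM and from 0 to 1.39 CPM. The median of the 4 neutrophil markers was 2.17 with all mice, 0.25 without low-dose mouse 8 and was 0.87 without low-dose mouse 4.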
